A study of Mus musculus with 5 samples.

Results

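Regulatory and activated T cell genes are described here in whole lung of female wild-type BALB/c mice. The members are the 9 genes Foxp3, Ikzf2, Il2ra, Ctla4, Icos, Cd28, Cd4, Cd3e and Cd5, taken by gene symbol from the 23183 symbols listed for each library. All 9 were found, and all 9 had a mean of at least 1 CPM (the usual unit of reads relative to library size, here scaled between libraries) over the 5 libraries, as did 14305 genes in all. The study has 5 groups with 1 library each. Control mice are labelled as having had no treatment. PM10 mice were given airborne particulate matter of the PM10 class into the nose 4 times over 2 weeks. PM10/OVA mice had the particles and also ovalbumin, a protein allergen, first injected into the abdomen and then given into the nose. PM10/OVA/CPX mice had both exposures and a chitinase-1 inhibitor, abbreviated CPX, injected 6 times over 3 weeks. PM10/OVA/Dex mice had both exposures and the glucocorticoid dexamethasone, injected 3 times in the last week. Mice were killed 2 days after the last challenge, and the RNA came from lung homogenate. The sources used here do not give ages, doses or whether a library pools animals. No library with ovalbumin alone or with either drug alone was analysed here.

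T cells recognise antigen through a receptor that signals by way of the CD3 chains, and helper T cells use CD4 as a coreceptor. CD28 gives the activating second signal when it meets CD80 or CD86 on antigen-presenting cells, and CTLA-4 binds the same ligands and restrains the response. ICOS is a relative of CD28 that appears after activation. Regulatory T cells hold immune responses in check. They are defined by the transcription factor Foxp3, carry the high-affinity IL-2 receptor chain CD25 (the product of Il2ra) and constitutive CTLA-4, and many of them express Helios, the product of Ikzf2. In the lung they limit allergic and particle-driven inflammation. Several of these genes are also used by other cells: activated effector T cells and some innate lymphoid and dendritic cells express Il2ra, innate lymphoid cells express Icos, and some B cells express Cd5.

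Each group is a single library, so none of the differences has a replicate check, and neither p-values nor tests between conditions are given. Each ratio is given with an exact 95% interval that covers counting error only, not the spread between mice. Library totals ran from 11993222 to 16929068 counts, so 1 read was worth 0.0577 to 0.0841 CPM. The members are low genes: Foxp3 had 18 to 48 reads per library and Cd4, the highest member, 183 to 326. In a bulk sample, fewer cells of a type and less RNA per cell cannot be told apart. The lung label was checked on the surfactant gene Sftpc (12728 to 13995 CPM) and the alveolar type 1 cell gene Ager (1369 to 1697 CPM), which were high in every library. The tissue pieces were not alike: summed heart-muscle marker genes were at 1887 CPM in control and at 120 to 302 CPM in the other libraries, summed fat genes at 242 CPM against 23.5 to 70.5 CPM, and summed cartilage genes at 113 CPM against 21.1 to 62.6 CPM. The part of this difference in the ratios to control was not tested. Control was the library with the lowest level of 5 of the members, namely Ctla4, Icos, Il2ra, Cd4 and Cd5.

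In GENCODE M21 on GRCm38, the mm10 assembly, all 9 are protein-coding genes. Cd28 (chromosome 1, 60716800 to 60773359, plus strand), Ctla4 (60887000 to 60915832) and Icos (60977927 to 61000320) lie side by side on the same strand within 284 kb. Ikzf2 is farther along chromosome 1 (69531214 to 69687245, minus strand). Foxp3 is on chromosome X (7573644 to 7595245), Il2ra on chromosome 2 (11642807 to 11693193), Cd4 on chromosome 6 (124864692 to 124888221), Cd3e on chromosome 9 (44998740 to 45009627) and Cd5 on chromosome 19 (10717116 to 10739002). Exons of Foxp3 share 590 bases with Ccdc22 and 266 bases with Ppp1r3f, both read from the opposite strand, 373 bases with Gm36995, also opposite, and 853 bases with the non-coding transcript Flicr on the same strand. The sources used here do not name the strand setting of the authors' counting, so reads of Foxp3 and these genes may not be fully separated. Ccdc22 was at 15.3 CPM in control and 16.0 in PM10, with 24.8 in PM10/OVA, 17.4 with the inhibitor and 16.6 with dexamethasone, highest in PM10/OVA. Ppp1r3f had 3.34, 4.06, 2.59, 3.75 and 2.86 CPM across those libraries, highest in PM10 as Foxp3 was, and above Foxp3 in every library except PM10/OVA. Per kilobase of annotated exon and averaged over the libraries, Cd4 had the highest level of the members (4.64 CPM per kb), followed by Icos (2.20), Cd3e (2.06), Ctla4 (1.52), Cd5 (1.36), Cd28 (1.23), Il2ra (1.03), Ikzf2 (0.966) and Foxp3 (0.523).

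RefSeq promoter windows on GRCm38.p6 matched 5 of the 9 members with 6 start sites (Foxp3 with a pair of sites, Ctla4, Il2ra, Cd3e and Cd5). Icos, Ikzf2, Cd4 and Cd28 were not matched. The 250 bases before the start are shown for the 3 matched members that differed most between libraries, Foxp3, Ctla4 and Il2ra, and for Cd3e, which differed least, so that windows of genes with unlike levels can be read side by side. Capitals mark matches on either strand to any of 5 short motifs. The core of NFAT sites, which act downstream of the T cell receptor, was searched as GGAAA. The RUNX motif was searched as TGTGGT. The STAT motif was searched as TTCNNNGAA. For AP-1 the letters were TGANTCA. For the TATA box they were TATAAA.
Foxp3, first start site, chrX:7579426-7579675, plus strand: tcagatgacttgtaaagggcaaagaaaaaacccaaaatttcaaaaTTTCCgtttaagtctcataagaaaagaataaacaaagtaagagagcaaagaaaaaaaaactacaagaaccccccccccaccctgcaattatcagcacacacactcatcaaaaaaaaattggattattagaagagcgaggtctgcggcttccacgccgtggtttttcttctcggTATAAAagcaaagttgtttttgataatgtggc
Foxp3, second start site, chrX:7580233-7580482, plus strand: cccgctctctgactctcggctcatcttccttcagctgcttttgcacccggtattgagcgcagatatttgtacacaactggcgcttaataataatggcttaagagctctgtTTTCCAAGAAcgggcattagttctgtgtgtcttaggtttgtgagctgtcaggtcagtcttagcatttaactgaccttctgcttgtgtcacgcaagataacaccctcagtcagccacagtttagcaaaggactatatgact
Ctla4, chr1:60908775-60909024, plus strand: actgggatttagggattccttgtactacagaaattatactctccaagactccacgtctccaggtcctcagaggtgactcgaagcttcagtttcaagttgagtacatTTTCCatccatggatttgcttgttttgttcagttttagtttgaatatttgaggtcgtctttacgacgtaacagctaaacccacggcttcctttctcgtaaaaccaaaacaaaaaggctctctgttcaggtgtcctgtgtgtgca
Il2ra, chr2:11642542-11642791, plus strand: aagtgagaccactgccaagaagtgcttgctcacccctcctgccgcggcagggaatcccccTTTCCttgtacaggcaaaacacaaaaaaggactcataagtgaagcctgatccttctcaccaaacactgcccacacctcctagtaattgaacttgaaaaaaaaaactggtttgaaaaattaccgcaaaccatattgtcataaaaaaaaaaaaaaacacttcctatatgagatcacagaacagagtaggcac
Cd3e, chr9:45009612-45009861, minus strand: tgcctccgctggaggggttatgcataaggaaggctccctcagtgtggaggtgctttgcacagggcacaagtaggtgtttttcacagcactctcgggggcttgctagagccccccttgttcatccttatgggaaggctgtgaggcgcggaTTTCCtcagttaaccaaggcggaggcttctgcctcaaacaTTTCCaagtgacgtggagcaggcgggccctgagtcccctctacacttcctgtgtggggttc
Each of the 5 windows holds the GGAAA core, always as TTTCC on the shown strand, once in Foxp3, Ctla4 and Il2ra windows and at 2 places in Cd3e. This core is in 55.6% of all 32851 promoter windows of this length, so its presence does not set these genes apart. In the second Foxp3 window the core at position -140 overlaps a STAT motif match at -139. The STAT motif is in 7.02% of all windows. The first Foxp3 window has a TATAAA match at -32, as 12.4% of all windows do at some position. RUNX and AP-1 motifs, in 14.0% and 6.75% of all windows, had no match in these letters, and the Cd5 window matched none of the 5 motifs. These matches are descriptions of sequence and not evidence of binding.

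Foxp3, the defining factor of regulatory T cells, was at 1.61 CPM in control (28 reads), 3.98 in PM10 (48 reads), 3.03 in PM10/OVA (48 reads), 1.84 with the inhibitor (23 reads) and 1.51 with dexamethasone (18 reads). The PM10 and PM10/OVA libraries were high and the other 3 were low, with control and both drug-treated libraries between 1.51 and 1.84 CPM. No step between neighbours in this order exceeded counting error. Ikzf2, which encodes the Helios factor, was at 11.7 CPM in control and 15.6 in PM10, with 9.15 in PM10/OVA, 9.98 with the inhibitor and 9.67 with dexamethasone. It shared the peak in PM10 with Foxp3, 1.33-fold above control (1.09 to 1.63), but in PM10/OVA it was lower than in control by 1.28-fold (1.03 to 1.59), where Foxp3 was higher.

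Il2ra, the CD25 chain that gives the IL-2 receptor its high affinity, was at 2.48 CPM in control (43 reads), 9.77 in PM10 (118 reads), 9.08 in PM10/OVA (144 reads), 3.83 with the inhibitor (48 reads) and 4.12 with dexamethasone (49 reads). PM10 and PM10/OVA formed a high pair, and the other 3 libraries were lower. The step from PM10/OVA down to PM10/OVA/Dex was 2.20-fold (1.58 to 3.11), while the pairs PM10 and PM10/OVA (1.08-fold, 0.836 to 1.38) and PM10/OVA/Dex and PM10/OVA/CPX (1.08-fold, 0.707 to 1.64) did not differ beyond counting error.

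Ctla4, the inhibitory receptor, was at 1.27 CPM in control (22 reads), 6.13 in PM10 (74 reads), 3.03 in PM10/OVA (48 reads), 3.67 with the inhibitor (46 reads) and 3.62 with dexamethasone (43 reads). PM10 was highest, control lowest, and the 3 libraries with ovalbumin lay between them without differing from one another beyond counting error. Icos, the inducible costimulator, was at 3.92 CPM in control and 12.5 in PM10, with 7.82 in PM10/OVA, 8.22 with the inhibitor and 5.30 with dexamethasone. It had the order of Ctla4 apart from the dexamethasone library, which was 1.48-fold below PM10/OVA (1.08 to 2.03) and within counting error of control (1.35-fold, 0.944 to 1.93). Cd28, the costimulatory receptor that naive T cells already carry, was at 7.26 CPM in control and 9.86 in PM10, with 7.38 in PM10/OVA, 7.51 with the inhibitor and 5.63 with dexamethasone. Its highest library was 1.75-fold above its lowest, against 4.83-fold for Ctla4 and 3.19-fold for Icos, its neighbours on chromosome 1.

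Cd3e, the receptor chain common to T cells, was at 7.90 CPM in control (137 reads), 8.61 in PM10 (104), 9.27 in PM10/OVA (147), 9.42 with the inhibitor (118) and 6.90 with dexamethasone (82). Its range was the narrowest of the 9, at 1.37-fold from lowest to highest. Cd5, a receptor on T cells that tempers antigen signals, was at 5.54 CPM in control and 7.46 in PM10, with 7.76 in PM10/OVA, 6.63 with the inhibitor and 6.05 with dexamethasone, a 1.40-fold range. For Cd3e, Cd5, Cd28 and Foxp3 no step between neighbours in the order of levels exceeded counting error. Cd4, the helper T cell coreceptor, was at 13.4 CPM in control and 22.9 in PM10, with 20.6 in PM10/OVA, 21.4 with the inhibitor and 15.4 with dexamethasone. PM10, PM10/OVA and PM10/OVA/CPX were close together, and the dexamethasone library was nearer to control (1.15-fold, 0.943 to 1.40) than to PM10/OVA.

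**Figure D1:**
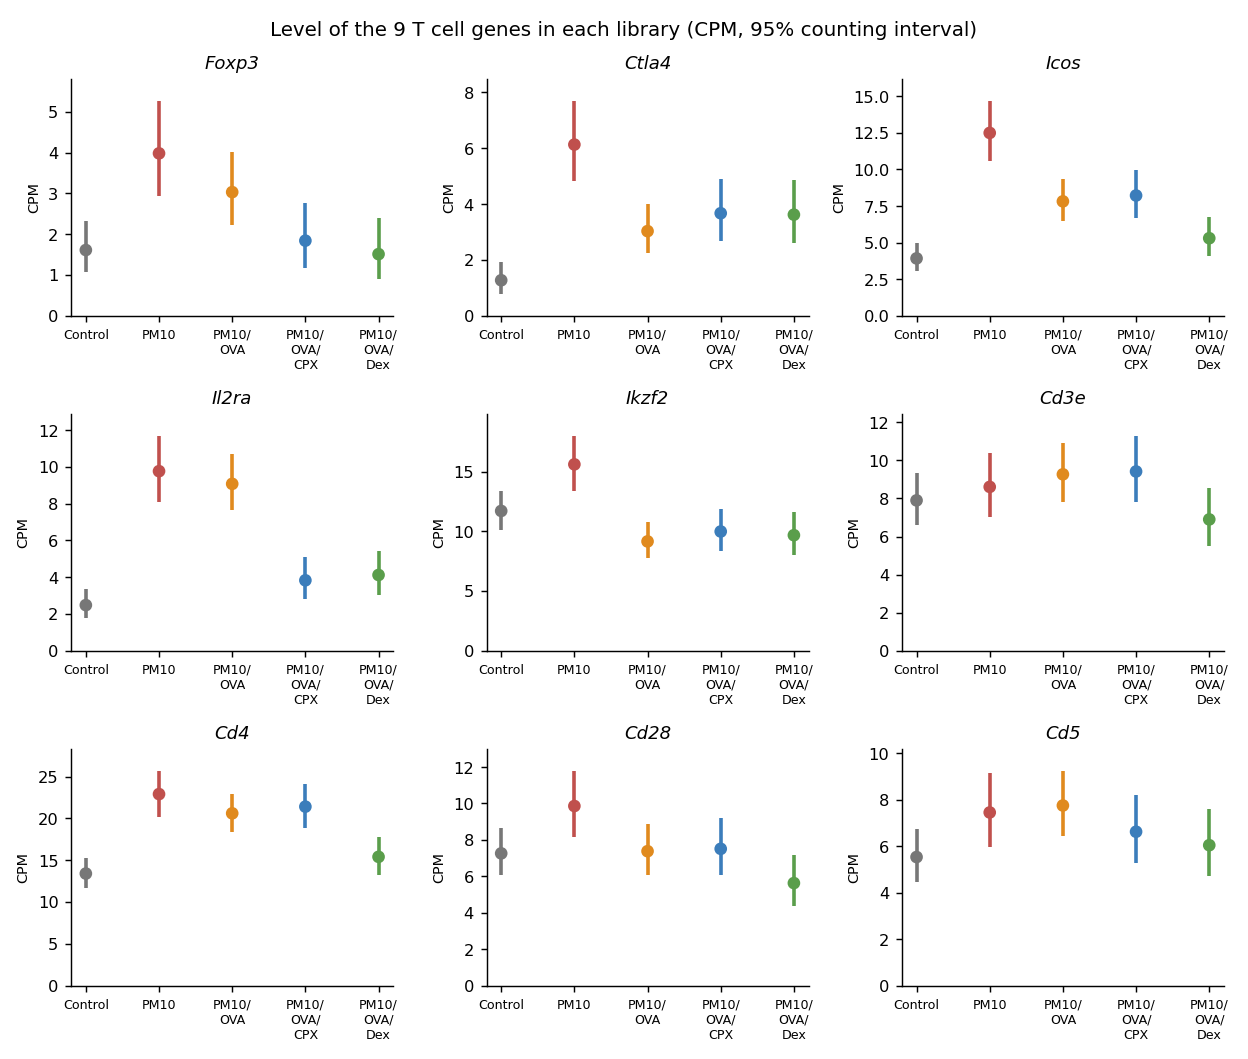
Level of each of the 9 genes in CPM (y axis, from 0, with its own scale in each panel) in the 5 libraries (x axis); points are the 1 library of each group and bars the exact 95% counting interval. Ctla4, Icos and Il2ra stand lowest in control and highest in PM10, and Cd3e stays between 6.90 and 9.42 CPM.

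The particles alone are read from PM10 set against control. All 9 members had a higher level in the PM10 library. Ctla4 was 4.83-fold higher (2.97 to 8.17), Il2ra 3.94-fold (2.76 to 5.73), Icos 3.19-fold (2.38 to 4.31) and Foxp3 2.46-fold (1.51 to 4.08). Cd4 was 1.71-fold higher (1.43 to 2.04), Cd28 1.36-fold (1.05 to 1.76) and Ikzf2 1.33-fold (1.09 to 1.63). Cd5 (1.35-fold, 0.999 to 1.81) and Cd3e (1.09-fold, 0.837 to 1.42) were within counting error. On the log2(CPM + 1) scale, which shrinks the ratios of low genes, 3 of 9 members (Ctla4, Icos and Il2ra) were at least 2-fold higher, where 3.70% of all genes were, and 0 of 9 were at least 2-fold lower, where 2.04% of all genes were. The members' median log2 ratio was 0.73, against 0.00 over all genes. With a pseudocount of 5 in place of 1, 0 of the 9 passed 2-fold.

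The addition of allergen is read from PM10/OVA set against PM10. Ctla4 was 2.02-fold lower with the allergen (1.39 to 2.97), Ikzf2 1.70-fold lower (1.36 to 2.13), Icos 1.60-fold lower (1.25 to 2.04) and Cd28 1.34-fold lower (1.03 to 1.74). Foxp3 (1.31-fold lower, 0.862 to 2.00), Il2ra (1.08-fold lower, 0.836 to 1.38), Cd4, Cd3e and Cd5 were within counting error. On the log2(CPM + 1) scale 0 of 9 members passed 2-fold in either direction, where 0.692% of all genes were higher and 1.27% lower. The median log2 ratio of the members was -0.31, against 0.00 over all genes.

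PM10/OVA against control shares a library with each of the preceding comparisons. Il2ra was 3.66-fold higher (2.59 to 5.28), Ctla4 2.39-fold (1.41 to 4.15), Icos 2.00-fold (1.47 to 2.72), Foxp3 1.88-fold (1.15 to 3.10), Cd4 1.54-fold (1.30 to 1.83) and Cd5 1.40-fold (1.06 to 1.85). Cd3e (1.17-fold, 0.924 to 1.49) and Cd28 (1.02-fold, 0.783 to 1.32) were within counting error. Ikzf2 was lower, at a ratio of 0.781 (0.627 to 0.972). Il2ra alone of the 9 was at least 2-fold higher on the log2(CPM + 1) scale, where 3.17% of all genes were, and 0 of 9 were at least 2-fold lower, where 2.73% were. With a pseudocount of 0.25 there were 2 such members, and with 5 there were 0.

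The chitinase-1 inhibitor is read from PM10/OVA/CPX set against PM10/OVA, the exposed lung without drug. Il2ra was 2.37-fold lower (1.70 to 3.36), on 48 reads against 144. Foxp3 was at 1.84 against 3.03 CPM, a 1.65-fold lower level whose interval reached just past equality (0.983 to 2.84). The other 7 members were within counting error, with ratios from 0.854 (Cd5) to 1.21 (Ctla4). Il2ra was thus the 1 member of 9 at least 2-fold lower, where 0.762% of all genes were, and 0 of 9 were at least 2-fold higher, where 0.636% were. With a pseudocount of 5 Il2ra did not pass 2-fold either. The members' median log2 ratio was 0.02.

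Dexamethasone is read from PM10/OVA/Dex set against the same PM10/OVA library. Il2ra was 2.20-fold lower (1.58 to 3.11), Foxp3 2.00-fold lower (1.14 to 3.65, on 18 reads against 48), Icos 1.48-fold lower (1.08 to 2.03), Cd3e 1.34-fold lower (1.02 to 1.78) and Cd4 1.34-fold lower (1.11 to 1.61). Cd28 (1.31-fold lower, 0.962 to 1.80) and Cd5 (1.28-fold lower, 0.95 to 1.74) were within counting error. Ctla4 and Ikzf2 were slightly above the PM10/OVA library, at 1.19-fold (0.773 to 1.84) and 1.06-fold (0.820 to 1.36). On the log2(CPM + 1) scale 0 of 9 passed 2-fold in either direction, where the shares of all genes were 1.20% higher and 1.60% lower. Under a pseudocount of 0.25, Il2ra was lower by at least 2-fold. The median log2 ratio was -0.38, against -0.01 over all genes.

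Both drug comparisons use the same PM10/OVA library, so a value particular to it enters both. Set directly against each other, the dexamethasone library had less Icos than the inhibitor library (1.55-fold lower, 1.12 to 2.16), less Cd4 (1.39-fold, 1.15 to 1.69) and less Cd3e (1.37-fold, 1.02 to 1.83). Il2ra (1.08-fold higher, 0.707 to 1.64), Foxp3 (0.824, 0.419 to 1.60) and Ctla4 (0.984, 0.634 to 1.53) had intervals that include equality and, for Foxp3, also a 2-fold difference. In this comparison 0 of 9 members passed 2-fold, where 1.06% of all genes were higher and 0.734% lower.

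**Figure D2:**
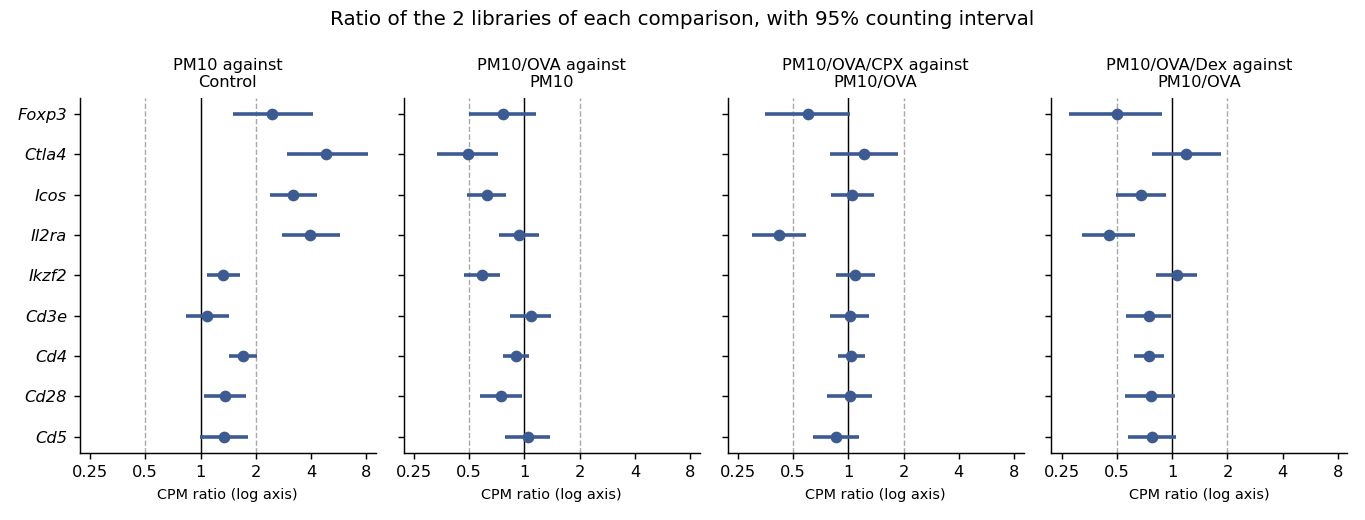
Ratio of CPM between the libraries of 4 comparisons (x axis, log scale) for each gene (y axis), with bars for the exact 95% counting interval, a solid line at equality and dashed lines at 2-fold. Ctla4, Icos, Il2ra and Foxp3 lie farthest right in PM10 against control, and Il2ra lies left of 0.5 in both drug comparisons.

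A ratio of 2 genes inside a library does not depend on how libraries are scaled, so each member was also read against Cd3e, as reads per 100 Cd3e reads. For Ctla4 this was 16.1 in control and 71.2 in PM10, with 32.7 in PM10/OVA, 39.0 with the inhibitor and 52.4 with dexamethasone. Control was lowest and PM10 highest, 4.43-fold apart (2.52 to 7.98). For Il2ra it was 31.4, 113, 98.0, 40.7 and 59.8 in the same order, 3.61-fold higher in PM10 than in control (2.30 to 5.72) and 2.41-fold lower in PM10/OVA/CPX than in PM10/OVA (1.58 to 3.70). Against PM10/OVA the Il2ra value was lower beyond counting error with dexamethasone too. For Icos it was 49.6, 145, 84.4, 87.3 and 76.8, so the 3 libraries with ovalbumin were within counting error of one another and the lower Icos level under dexamethasone went along with lower Cd3e (ratio 0.911 against PM10/OVA, 0.594 to 1.39). The lower Cd4 level under dexamethasone did so too, with 222 Cd4 reads per 100 Cd3e reads in PM10/OVA and 223 in PM10/OVA/Dex.

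For Foxp3 the value per 100 Cd3e reads was 20.4 in control and 46.2 in PM10, with 32.7 in PM10/OVA, 19.5 with the inhibitor and 22 with dexamethasone. PM10 was 2.26-fold above control (1.29 to 4), and control and both drug-treated libraries were nearly equal. The drug-treated libraries were lower than PM10/OVA by 1.68-fold for the inhibitor (0.936 to 3.06) and 1.49-fold for dexamethasone (0.787 to 2.90), both within counting error at these read numbers. Read against Cd4 in place of Cd3e, Foxp3 in PM10 was 1.44-fold above control, with an interval from 0.854 to 2.47 that includes equality. For Cd28 and Cd5 none of the 6 comparisons gave a ratio to Cd3e outside counting error. Ikzf2 per Cd3e was 1.83-fold lower in PM10/OVA than in PM10 (1.30 to 2.59) and 1.5-fold lower than in control (1.08 to 2.09). Ikzf2 had more reads than Cd3e in every library except PM10/OVA, and whether its reads come from T cells was not tested.

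**Figure D3:**
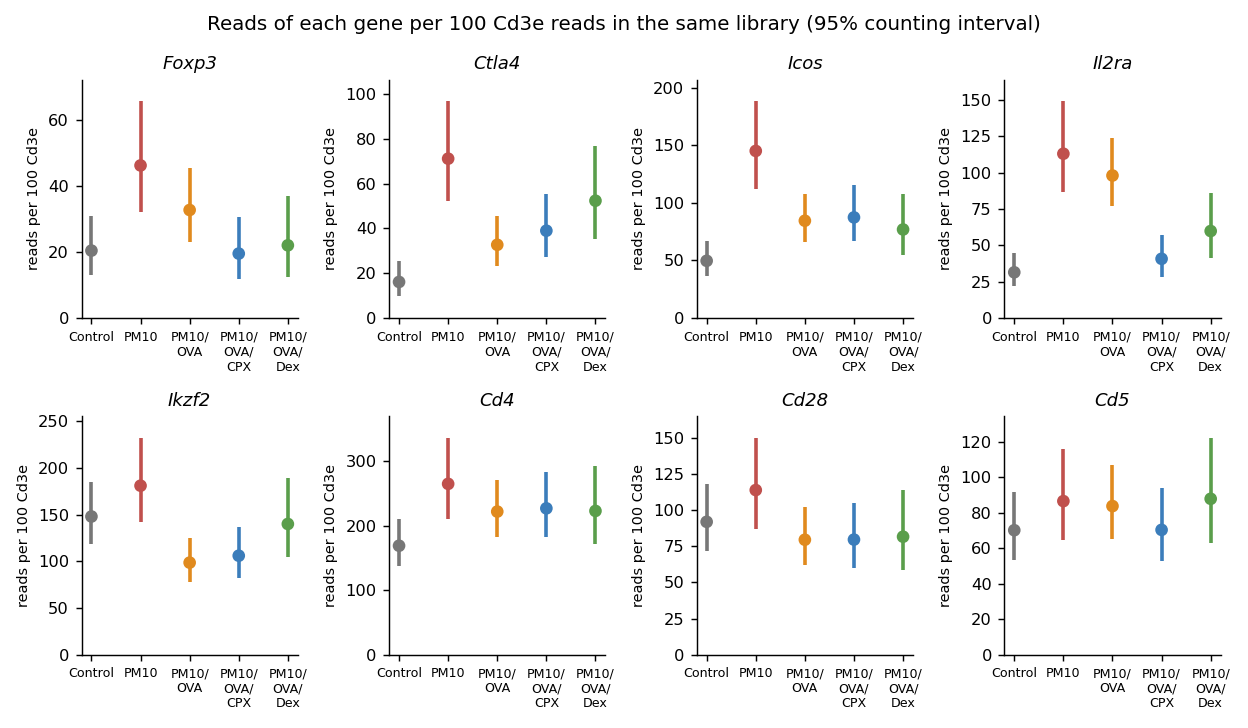
Reads of each gene per 100 Cd3e reads of the same library (y axis, from 0, own scale in each panel) in the 5 libraries (x axis), with the exact 95% counting interval. Ctla4 and Il2ra in PM10 (71.2 and 113) lie well above control (16.1 and 31.4), while Cd28 and Cd5 stay within 79.6 to 114 and 70.1 to 87.8.

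Other genes of the pathway were taken from lists chosen by known role, with earlier results of these data known. Of the ligands of the CD28 family, all 7 listed genes were measured. In PM10 against control 3 of 7 were at least 2-fold higher and 0 lower, beside 3.70% and 2.04% of all genes. They were Cd80 (3.55-fold, 1.98 to 6.65) and Cd86 (2.98-fold, 2.28 to 3.91), which bind CD28 and CTLA-4, and Cd274 (2.39-fold, 2.14 to 2.68), the PD-1 ligand. Icosl, the ligand of ICOS, was at 20.7 CPM in control and 26.7 CPM in PM10. Against PM10/OVA, 0 of 7 ligands passed 2-fold in the inhibitor library, where 0.636% of all genes were higher and 0.762% lower. The count was also 0 of 7 in the dexamethasone library, where 1.20% were higher and 1.60% lower. Of the 7, 5 were lower in the inhibitor library and 6 in the dexamethasone library. Their medians were -0.20 and -0.55, against 0.00 and -0.01 over all genes. The PD-1 ligand gene Pdcd1lg2 was 2.57-fold lower under dexamethasone on the CPM scale (1.52 to 4.53, 19 reads against 65).

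In the IL-2 receptor pathway, 11 of 12 listed genes were measured and 0 of 11 passed 2-fold in any of the 6 comparisons. Over all genes, 0.636% to 3.70% were at least 2-fold higher and 0.734% to 2.73% lower, depending on the comparison. Il2 itself had 0 to 2 reads per library. The receptor's shared chain Il2rg was at 50.7 CPM in control and 81.3 in PM10, with 90.1 in PM10/OVA, 55.7 with the inhibitor and 48.7 with dexamethasone, and so was high in the same libraries as Il2ra. It was 1.62-fold lower in the inhibitor library than in PM10/OVA (1.48 to 1.77) and 1.85-fold lower in the dexamethasone library (1.68 to 2.04). Il2rb, the remaining receptor chain, had 17.8 CPM in control, 24.4 and 21.1 CPM in PM10 and PM10/OVA, and 13.9 and 13.5 CPM with the inhibitor and with dexamethasone. Cish, a STAT5-induced inhibitor of cytokine signalling, had another order, lowest in control (17.9 CPM) and highest in the dexamethasone library (36.7 CPM).

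Of 12 further costimulatory and inhibitory receptors, 10 were measured. In PM10 against control 5 of 10 were at least 2-fold higher and 0 lower, beside 3.70% and 2.04% of all genes, and the median was 0.90, against 0.00 over all genes. They were Tnfrsf9 (4-1BB, 13.6-fold, 7.97 to 24.9), Tnfrsf4 (OX40, 6.70-fold, 2.72 to 19.8, on 28 reads against 6), Pdcd1 (PD-1, 6.14-fold, 3.14 to 13.1), Havcr2 (TIM-3, 3.39-fold, 2.75 to 4.20) and Tnfrsf18 (GITR, 2.49-fold, 1.63 to 3.83). Havcr2 and Tnfrsf9 are also expressed by myeloid cells. Under dexamethasone against PM10/OVA, Pdcd1 was 2.46-fold higher (1.63 to 3.75), whereas Tnfrsf9 was 2.40-fold lower (1.89 to 3.06) and Btla 2.35-fold lower (1.93 to 2.87). Under the inhibitor 0 of 10 passed 2-fold, where 0.636% of all genes were higher and 0.762% lower. Pdcd1 was at 0.634 CPM in control and 3.89 in PM10, with 2.40 in PM10/OVA, 4.55 with the inhibitor and 5.89 with dexamethasone, so that its highest libraries were not those of Foxp3 or Il2ra.

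Among 16 other genes linked to regulatory T cells, 13 were measured, of which Tnfrsf4 and Tnfrsf18 are in the receptor list as well. These 2 were the ones at least 2-fold higher in PM10 than in control, where 3.70% of all genes were. None of the 13 was at least 2-fold lower, where 2.04% were, and the list's median was 0.56, against 0.00 over all genes. In the inhibitor library 12 of the 13 were below PM10/OVA, none by 2-fold on the log2(CPM + 1) scale. The list's median there was -0.16, against 0.00 over all genes. Its largest difference was that of Il1rl1, the 1 gene that was higher (1.79-fold, 1.47 to 2.17, on 261 reads against 185). Izumo1r, the folate receptor family gene of regulatory T cells, was at 2.21 CPM in PM10/OVA and 0.878 in PM10/OVA/CPX (35 against 11 reads, 2.51-fold lower, 1.25 to 5.49). Il10, a cytokine that regulatory T cells secrete, had 2 to 5 reads per library, too few to compare. Of the measured genes, Izumo1r, Ebi3, Itgae, Tnfrsf18 and Tnfrsf4 had their highest levels in PM10 and PM10/OVA, as Foxp3 did. Not every step exceeded counting error, as for Izumo1r in PM10 against control (1.38-fold, 0.765 to 2.49). The other measured genes of the list did not have this order. Among them were Ikzf4, Lrrc32 and Nrp1, at 2.10 to 2.84, 34.8 to 62.6 and 564 to 772 CPM. Lrrc32 and Nrp1 are abundant in other lung cells.

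All 13 listed genes of the T cell receptor complex and its proximal signalling were measured. In PM10 against control 0 of 13 passed 2-fold, where 3.70% of all genes were higher and 2.04% lower. Of the 13, 12 were above 0, with a median of 0.36, against 0.00 over all genes. The CD3 chain genes Cd3d (10.7 CPM in both libraries) and Cd3g (15.9 and 16.3 CPM) were nearly level, as Cd3e was. The largest difference on the log2(CPM + 1) scale was that of Lcp2 (1.97-fold, 1.73 to 2.25), an adaptor that macrophages and neutrophils also use. In the dexamethasone library all 13 were below PM10/OVA, none by 2-fold, where 1.60% of all genes were. Their median was -0.39, against -0.01 over all genes, and their summed level was 149 CPM against 215. Under the inhibitor the sum was 215 CPM and the median 0.14. Lcp2 was the largest part of these sums, at 53.2 CPM in PM10/OVA, 39.4 with the inhibitor and 28.5 with dexamethasone. The dexamethasone library also had the lowest level of Ptprc, which encodes the leukocyte marker CD45, at 197 CPM against 203 in control, 317 in PM10, 288 in PM10/OVA and 275 in PM10/OVA/CPX.

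Marker genes of other cell types that can express members are given by library, and their part in the results was not tested. Values follow the order control, PM10, PM10/OVA, inhibitor and dexamethasone. All 8 listed dendritic cell genes were measured, and they summed to 75.8, 116, 149, 102 and 81.8 CPM. These 8 genes did not share an order. Ccl22 (2.19, 10.9, 21.7, 5.83 and 6.90 CPM), Fscn1 (31.2, 50.9, 63.3, 40.3 and 29.0 CPM) and Ccl17 (1.1, 4.64, 14.1, 10.3 and 8.66 CPM) were highest in PM10/OVA and Il12b in PM10 (2.82 CPM). Flt3 (8.62 CPM) and Xcr1 (9.42 CPM) were highest with the inhibitor, Cd209a with dexamethasone (14.1 CPM) and Ccr7 in control (26.3 CPM). All 7 monocyte and macrophage genes were measured, and they summed to 332, 758, 846, 668 and 521 CPM. Of 8 genes of group 2 innate lymphoid cells 4 were measured, and the list summed to 125, 121, 99.6, 118 and 128 CPM. Rora alone made up most of this sum (113, 103, 79.5, 88.3 and 110 CPM). Of the other measured genes, Il1rl1 (6.46, 10.4, 11.7, 20.8 and 13.3 CPM) and Klrg1 (4.47 CPM) were highest with the inhibitor. Il9r was highest in PM10 (1.74 CPM). B cell genes (10 of 10 measured), which bear on Cd5, summed to 240, 213, 308, 222 and 134 CPM. In the dexamethasone library 8 of 10 B cell genes were at least 2-fold below PM10/OVA and 0 above, where 1.60% of all genes were lower and 1.20% higher. NK cell genes (7 of 8 measured) summed to 81.4, 80.3, 91.2, 67.9 and 45.9 CPM. Of 7 genes of immature T cells in the thymus, Rag1 and Rag2 had 0 to 2 reads in every library, Dntt had 2 to 8, Arpp21 had 0 to 2 and Ptcra was at 0 in all 5. The 2 measured genes of that list, Cd1d1 and Tcf7, were at 7.32 to 17.6 and 28.6 to 38.8 CPM.

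**Figure D4:**
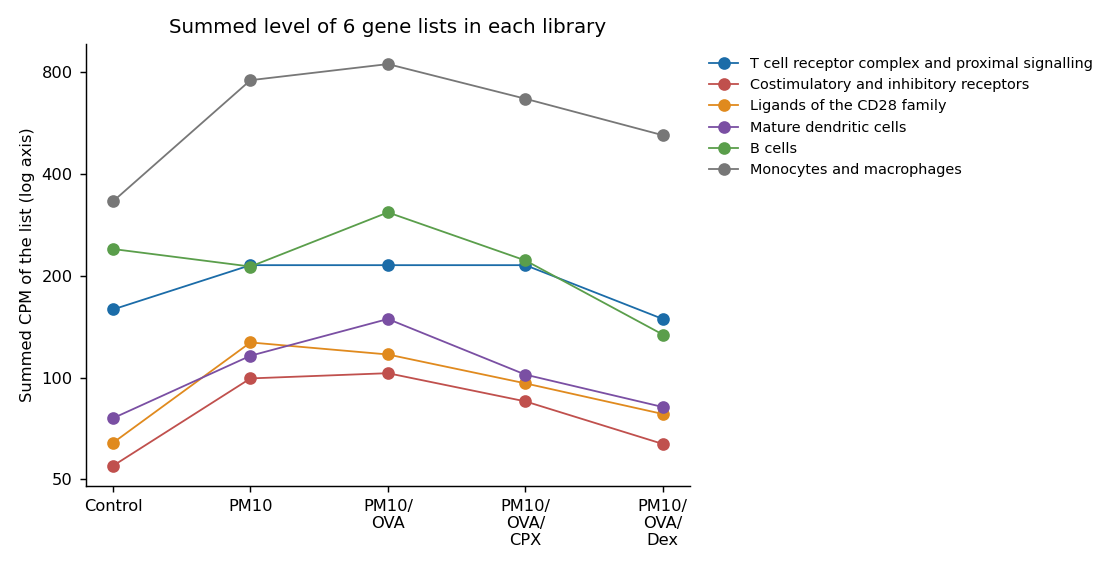
Summed CPM (y axis, log scale) of 6 gene lists in the 5 libraries (x axis), 1 point per library and lines only to join the points of a list. T cell receptor genes lie between 149 and 215 CPM, while monocyte and macrophage genes go from 332 CPM in control to 846 CPM in PM10/OVA. The list labelled mature dendritic cells is the dendritic cell list of the text.

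Genes with a profile over the 5 libraries most like that of Foxp3 were sought among the 14305 genes averaging at least 1 CPM. The measure was the Euclidean distance between centred log2(CPM + 1) profiles. Members, predicted genes with Gm or Rik names, small RNAs and receptor segments were left out of the genes named as nearest. For Foxp3 the nearest were Ncapg2 (distance 0.13), Tapbp (0.17), Aim1 (0.19), Wdhd1 (0.20) and Lmnb1 (0.22). Ncapg2, a condensin subunit, was at 10.4, 19.6, 14.6, 10.9 and 9.75 CPM, and so had the peak of Foxp3 in PM10. For Ctla4 the nearest were Cdca2 (0.17), Mpeg1 (0.25), Pira6 (0.28), Plk1 (0.28) and Ctsd (0.32). For Cd3e they were Mcm9 (0.04), Cwc22 (0.05), Pigt (0.06), Sh3kbp1 (0.06) and Lrwd1 (0.07), all with small ranges. No other member was among the 5 nearest genes of these 3: the member nearest to Foxp3 was Cd28 at rank 449 (distance 0.54), the member nearest to Ctla4 was Icos at rank 72 (0.56), and the member nearest to Cd3e was Cd5 at rank 1486 (0.28). With 5 points per profile and few reads for Foxp3 and Ctla4, these distances describe these libraries only.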

How the data were processed

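RNA of whole lung was sequenced in 5 libraries, 1 per group. Trizol extraction, 1.3 ug of input RNA and the NEBNext Ultra II Directional kit are given per the labels' protocols. The submitters' processing notes name TopHat and mm10. The sources used here do not give the counting tool, annotation or strand setting. The authors deposited whole-number read counts per gene symbol with no normalization. From these counts, CPM was computed with trimmed-mean-of-M-values factors (TMM, edgeR 4.0.16 in R 4.3.3). Counts of genes cover those averaging 1 CPM or more, and a gene passed 2-fold where log2(CPM + 1) differed by at least 1. Ratios of CPM carry exact Clopper-Pearson conditional 95% intervals, and ratios per Cd3e the exact conditional interval of the odds ratio (scipy 1.17.1). Both cover counting error only, and reads without molecular identifiers are not independent molecules. The calculation was tested on simulated data.

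The 6 comparisons share libraries. The members and the gene lists were chosen with earlier results of these data known. The naming rule takes all members, the first 3 genes of each described list, up to 4 of its members with the largest difference in that comparison, and the 5 nearest profiles of Foxp3, Ctla4 and Cd3e. Tnfrsf18 (in PM10 against control), Il10, Nrp1, Ptcra and, by their profiles, Ebi3 and Itgae fall outside it and were named after their values were seen. Exon lengths and gene positions are from GENCODE M21. Alternatives were DESeq2 1.42.0 size factors, library totals, upper-quartile scaling, pseudocounts of 0.25 and 5, other filters on low genes and other denominators for Foxp3.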

Additional observations from a re-analysis of the deposited data

How the results depend on the processing

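The pseudocount and the filter on low genes moved the counts of members past 2-fold. With a pseudocount of 5 the members at least 2-fold higher were 0 in PM10 against control (3 as reported) and 0 in PM10/OVA against control (1 as reported), and those lower were 0 in PM10/OVA/CPX against PM10/OVA (1 as reported). With 0.25, Foxp3 joined the members at least 2-fold higher in PM10 against control. That setting also gave 2 higher in PM10/OVA against control and 1 lower in PM10/OVA/Dex against PM10/OVA (0 as reported). A larger pseudocount shrinks ratios of low genes by construction. A mean of at least 5 CPM leaves 7 members, without Foxp3 and Ctla4, and the count higher in PM10 against control was then 2. The counts under DESeq2 size factors, library totals and no filter equalled the reported ones in all 6 comparisons. Across 3 other scalings the 162 log2 ratios of single members moved by at most 0.06, and 2 of them changed sign, both of Cd28 in PM10/OVA against control (0.02 as reported, -0.03 with library totals and -0.02 with upper-quartile scaling). Foxp3 in PM10 against control was 2.26-fold per Cd3e, 2.46-fold per Cd3d and 2.38-fold per the sum of the 3 CD3 genes, but 1.44-fold per Cd4, where the interval (0.854 to 2.47) includes equality. No paired analysis was possible because each group has 1 library, and for the same reason no library could be left out. Depth limits Foxp3 most, with 18 to 48 reads: even its 1.65-fold lower level with the inhibitor was not beyond counting error.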

Other observations

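T helper subset genes were low in all 5 libraries and did not share 1 order. Il17a, the defining cytokine of Th17 cells, had 0 reads in control and in PM10, with 4 in PM10/OVA, 45 with the inhibitor and 13 with dexamethasone. It was 14.2-fold higher in the inhibitor library than in PM10/OVA (exact counting interval 5.19 to 54.5) and 4.33-fold higher in the dexamethasone library (1.34 to 18.2). The type 2 cytokine gene Il13 had 0, 2, 7, 15 and 2 reads in control, PM10, PM10/OVA, the inhibitor library and the dexamethasone library. Il4 had 3, 2, 15, 7 and 11 reads, and Il5 had 1, 1, 8, 4 and 1. Gata3, the Th2 transcription factor, was at 7.32 to 14.9 CPM.

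Of the Th1 genes, the T cell homing receptor Cxcr6 was 2.51-fold higher in the inhibitor library than in PM10/OVA (2.00 to 3.16). Its levels there were 18.5 and 7.38 CPM. It was the 1 of 5 measured Th1 genes to pass 2-fold, where 0.636% of all genes were higher and 0.762% lower. Cxcr6 was 2.50-fold lower in the dexamethasone library than in the inhibitor library (1.95 to 3.24). In that comparison 3 of 5 were at least 2-fold lower, where 0.734% of all genes were. Tbx21, the Th1 transcription factor, was within counting error of PM10/OVA in the inhibitor library (1.03-fold, 0.704 to 1.51). Under dexamethasone Tbx21 was 2.87-fold lower than in PM10/OVA (1.66 to 5.22), on 17 reads against 65. It was the 1 of 5 measured Th1 genes at least 2-fold lower there, where 1.60% of all genes were. Cxcr3, a receptor for interferon-induced chemokines, was highest in PM10 at 5.22 CPM against 1.67 in control, the library in which Ctla4, Icos and Foxp3 were also highest. Il7r, the receptor of a survival cytokine of T cells, was 2.43-fold higher in PM10 than in control (2.12 to 2.79). It was the 1 of 8 naive and central memory genes to pass 2-fold there, where 3.70% of all genes were higher and 2.04% lower. Of the 8, 6 were below control, and the list's median was -0.08. Ccr7, which guides naive T cells and mature dendritic cells to lymph nodes, was 2.13-fold lower under dexamethasone than in PM10/OVA (1.76 to 2.60). These are values of 1 library each, and whether they belong to T cells was not tested.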
